A study of Mus musculus with 16 samples.

Results

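Adipose stromal progenitors are the fibroblast-like cells between the fat cells of a depot, from which new fat cells arise, and the genes described here are 8 that mark these cells or act in them: Pdgfra, Pdgfrb, Cd34, Ly6a, Dpp4, Pi16, Dlk1 and Zfp423. They were chosen by symbol, and every probe that the array's annotation assigns to one of them was taken. Of the 8 genes, 7 had an annotated probe, out of 16593 genes with a probe on the array, and Ly6a, which encodes the surface antigen Sca-1, is not analysed here. The 7 genes had 8 probes, 1 for each gene and 2 for Zfp423. Single-marker genes of this kind are shared with other cells: Pdgfrb marks mural cells of vessels as well, Cd34 marks endothelial cells, and Dpp4 is abundant in hepatocytes.

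In adipose tissue, progenitors positive for Pdgfra are held to form a sequence in which Dpp4- and Pi16-positive interstitial cells give rise to committed preadipocytes. PDGF receptors are tyrosine kinases of the cell surface that keep such cells proliferating, Dlk1 (Pref-1) restrains their differentiation, and Zfp423 is a zinc finger factor that commits them to the adipocyte lineage. A high-fat diet enlarges the depot, and the study asked how loss of FGF1, a secreted growth factor, alters that remodelling.

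Total RNA of epididymal white adipose tissue (eWAT), the fat pad attached to the epididymis, and of liver was hybridized to Illumina MouseRef-8 bead arrays. The mice were FGF1 null or wild-type, 24 weeks old, and had been kept on a high-fat diet (HFD) or normal chow for 16 weeks. In eWAT and again in liver the groups were FGF1 null on HFD, FGF1 null on chow, wild-type on HFD and wild-type on chow, which makes 8 groups. According to the labels the 2 arrays of a group are technical replicates of 1 RNA sample, and whether it was drawn from one animal or several is not given. The tests between groups within a tissue therefore compare 2 RNA samples against the spread between arrays, and the spread between mice was not measured.

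Levels below are log2 intensities after background correction and quantile normalization within a tissue. A difference is a difference of these log2 levels, with the standard error (SE) from limma at n = 2 arrays in each group. A probe was called higher or lower when its adjusted p was under 0.05, over all probes kept in the tissue, and its difference was at least 2-fold. A probe was detected on an array when its detection p was under 0.05.

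The arrays detected 13570 to 15399 of 25697 probes in eWAT and 10626 to 11650 in liver. The genotype labels were checked on Fgf1, whose probe ILMN_2701233 averaged 9.27 in FGF1 null and 10.77 in wild-type eWAT on HFD, but 9.97 in FGF1 null and 9.30 in wild-type eWAT on chow. The other probe, ILMN_2721110, differed between FGF1 null and wild-type eWAT by 0.25 on HFD (adjusted p = 0.391) and 1.16 on chow (adjusted p = 0.00142). In liver ILMN_2701233 differed by -1.43 on HFD and -0.95 on chow, and ILMN_2721110 by -0.25 and 0.12. In eWAT, Fgf1 therefore went against the label on chow with both probes, and on HFD the probes disagreed, with 1 called lower. Where the probes lie relative to the deleted part is not given in the sources used here. Genotypes below are those of the labels, and every direction between genotypes rests on them. Both wild-type eWAT samples and the FGF1 null HFD sample stood apart, each in the transcripts of another tissue. In wild-type chow eWAT the summed sperm and spermatid markers reached 109834 to 112182 on the linear scale, against 1845 to 3056 in the other 3 eWAT samples. Epididymal markers summed to 29035 to 30476 in FGF1 null HFD, 49519 to 50582 in FGF1 null chow, 331 to 364 in wild-type HFD and 99032 to 109054 in wild-type chow eWAT. Acinar pancreas markers summed to 350844 to 357307 in FGF1 null HFD, 247 to 249 in FGF1 null chow, 66023 to 68418 in wild-type HFD and 247 to 256 in wild-type chow eWAT. Hepatocyte markers summed to 56357 to 59919 in FGF1 null HFD, 7524 to 7801 in FGF1 null chow, 153909 to 160088 in wild-type HFD and 36188 to 36515 in wild-type chow eWAT. The marker Cyp2e1 averaged 15.78 in FGF1 null HFD and 15.10 in wild-type chow eWAT, and it made up most of the sums of these samples. The mean log2 level of the list was 8.32 in FGF1 null HFD, 7.37 in FGF1 null chow, 12.10 in wild-type HFD and 7.98 in wild-type chow eWAT. Transthyretin (Ttr), a plasma protein of liver, averaged 8.41 in FGF1 null HFD, 14.84 in wild-type HFD and 7.74 in wild-type chow eWAT. Alb and Fgb were not detected on any eWAT array, but their probes were dim in liver as well. There Fgb was detected on no array, and the group means of Alb were 4.74 to 5.11, so their absence in eWAT carries no information. The part of these other tissues in the members' results was not tested.

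Promoter sequence is given for the members at opposite ends of the tissue comparison and for one that was called in eWAT: Pi16, with the widest excess in eWAT, Dpp4, which was higher in liver, and Cd34. The stretches are the bases upstream of the annotated gene start, from RefSeq on GRCm38.p6, 5' to 3' on the gene's strand, and they were cut before the transcribed part. Capitals mark matches to the searched motifs.
Cd34, chr1:194938571-194938820, plus strand: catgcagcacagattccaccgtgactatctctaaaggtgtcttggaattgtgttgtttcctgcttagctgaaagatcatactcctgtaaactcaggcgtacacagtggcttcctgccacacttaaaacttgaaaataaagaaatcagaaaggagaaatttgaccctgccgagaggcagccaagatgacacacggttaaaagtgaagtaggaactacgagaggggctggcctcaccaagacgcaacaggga
Pi16, chr17:29318632-29318795, plus strand: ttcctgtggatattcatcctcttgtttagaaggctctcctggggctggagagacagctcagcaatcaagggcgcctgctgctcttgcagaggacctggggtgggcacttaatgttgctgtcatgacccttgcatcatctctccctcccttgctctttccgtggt
Dpp4, chr2:62412316-62412481, minus strand: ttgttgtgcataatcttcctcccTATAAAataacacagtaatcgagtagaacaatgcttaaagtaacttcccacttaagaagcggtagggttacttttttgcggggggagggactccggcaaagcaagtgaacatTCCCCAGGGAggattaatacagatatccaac
The Dpp4 stretch holds the letters of a TATA box (TATAAA), the first run in capitals, near its upstream end and away from the gene start. Of 32851 annotated promoters, 7.91% hold these letters in a stretch of the same length. The Dpp4 stretch also holds the palindrome that early B-cell factors bind, the second run in capitals, which 0.490% hold. The compared stretches were the first bases of each promoter window, and distance to the gene start was not considered. The 7.91% is therefore not the share of promoters with a working TATA box. Zfp423 is a known partner of early B-cell factors. The searches covered both strands and also the GC box (GGGCGG), the E-box CACGTG and CCAAT. No match to any of these 5 motifs was found in the Cd34 and Pi16 stretches. The stretches have 46.4% (Cd34), 54.3% (Pi16) and 42.8% (Dpp4) G and C. A match is a description of letters, and the arrays measured no binding.

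The comparison of eWAT with liver was the one with several RNA samples on each side, 4 against 4, with all 16 arrays normalized together and each genotype and diet combination as a block. Of the 8 member probes, 5 were higher and 1 was lower in eWAT, where 27.7% of all 16251 probes were called (14.5% higher and 13.1% lower). In bulk tissue, fewer cells of a type and less RNA per cell cannot be told apart. The median difference of the members was 1.59, beside 0.08 over all probes.

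Pi16, a peptidase inhibitor family member of adventitial and interstitial fibroblasts, averaged 8.82 ± 0.58 in eWAT and 5.12 ± 0.26 in liver (SD, n = 4 RNA samples each). It was detected on 8 of 8 eWAT arrays but on 1 of 8 liver arrays, so the difference of 3.71 ± 0.27 (adjusted p = 0.000741) rests on a liver level near background. Pdgfra, the receptor for PDGF-A and PDGF-C, was detected on every array of both tissues. It averaged 10.23 ± 0.41 in eWAT and 7.70 ± 0.16 in liver, a difference of 2.53 ± 0.19, or 5.77-fold (adjusted p = 0.000803). The lowest eWAT sample, at 9.76, lay above the highest liver sample, at 7.90.

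Neither Zfp423 probe was detected on a liver array. Probe ILMN_3131693 was at least 2.80-fold higher in eWAT (means 7.21 and 4.57, adjusted p = 0.00102) and probe ILMN_2469366 at least 1.78-fold higher (means 6.55 and 4.72, adjusted p = 0.00244). The bounds set the eWAT mean against the lowest signal detected on each liver array. Cd34, a sialomucin of stromal, endothelial and blood-forming progenitor cells, was also detected on 0 liver arrays. Its eWAT mean was 5.92 and its liver mean 4.57, which is at least 1.15-fold higher in eWAT (adjusted p = 0.00954).

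Dpp4 ran the other way. This surface peptidase (CD26), which marks interstitial progenitors but also lines the bile canaliculi of hepatocytes, averaged 10.62 ± 0.37 in eWAT and 11.81 ± 0.04 in liver (SD, n = 4 each). It was lower in eWAT by 1.19 ± 0.22 on the log2 scale, and liver was 2.28-fold above eWAT (adjusted p = 0.0105). Its 4 liver samples spanned 11.78 to 11.88, while the eWAT samples spanned 10.26 to 11.06. Pdgfrb, the receptor for PDGF-B and PDGF-D, averaged 6.38 ± 0.67 in eWAT and 5.26 ± 0.66 in liver and was not called (1.11 ± 0.41, adjusted p = 0.0851), although median scaling called it (1.37, adjusted p = 0.0442). The tissues overlapped for Pdgfrb, since FGF1 null HFD liver, at 6.15, lay above wild-type chow eWAT, at 5.42. Dlk1 differed by 0.45 ± 0.26 between eWAT and liver (adjusted p = 0.222) and was detected on 5 eWAT and 0 liver arrays.

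The exact two-sided permutation test of 4 samples against 4 gave p = 0.0286, the smallest it can give, for 6 probes and 0.0571 for Pdgfrb and Dlk1. After adjustment over the 8 probes these are 0.0381 and 0.0571. Without the wild-type chow eWAT sample the counts were again 6 called probes, with Pi16 at 3.95, Pdgfra at 2.65 and Dpp4 at -1.25, and likewise 6 without the wild-type HFD eWAT sample. Without the FGF1 null chow eWAT sample, Cd34 (adjusted p = 0.0504) and Dpp4 (adjusted p = 0.0546) missed the threshold; the liver sample of that block leaves the fit with it. Without background correction the differences of Cd34 and of Zfp423 probe ILMN_2469366 were 0.64 and 0.82, short of 2-fold.

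**Figure D1:**
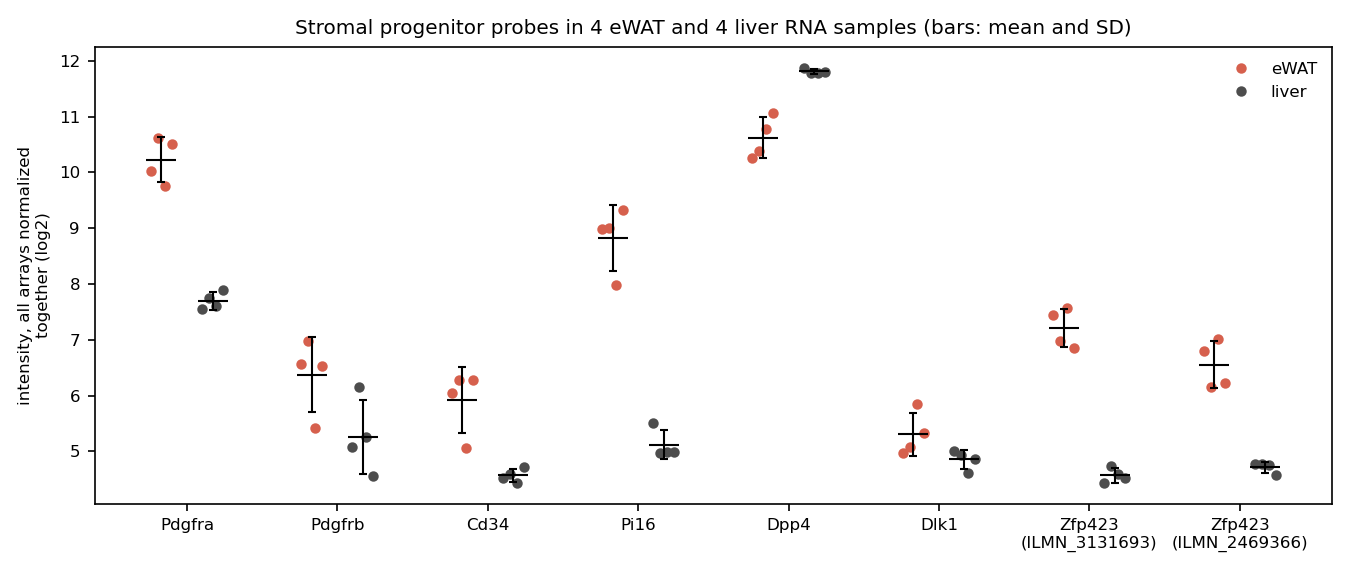
Log2 intensity of the 8 member probes in 4 eWAT (red) and 4 liver (grey) RNA samples, each point the mean of 2 arrays after joint normalization, with bars for the mean and SD. Pi16, Pdgfra, Cd34 and both Zfp423 probes lie higher in eWAT with no overlap, Dpp4 lies lower in eWAT, and Pdgfrb and Dlk1 overlap between tissues.

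Within eWAT all 8 member probes passed the detection filter, and all but Dlk1 were detected on all 8 arrays. The question of each comparison was how the diet altered the depot in one genotype, or how the genotypes differed on one diet. HFD against chow in the FGF1 null samples called 0 of the 8 member probes, where 9.64% of 15839 probes were called. In that comparison 2 members had an unadjusted p under 0.05, as had 6655 of all 15839 probes. HFD against chow in the wild-type samples called 3 of 8, 2 higher and 1 lower, where 31.8% of all probes were called (16.2% higher and 15.6% lower). FGF1 null against wild-type called 3 of 8 on chow, again 2 higher and 1 lower. There 25.7% of all probes were called (13.2% higher and 12.5% lower). FGF1 null against wild-type on HFD called 0 of 8, where 10.8% of all probes were called. In that comparison 4 members had an unadjusted p under 0.05, as had 6525 of all 15839 probes. The members' shares lay near these backgrounds. The comparisons that called members both used the wild-type chow sample, which stood apart in its sperm transcripts. The first also used the wild-type HFD sample, which stood apart in its hepatocyte transcripts and in its low epididymal markers (331 to 364). The comparisons that called 0 members both used the FGF1 null HFD sample, which stood apart in its acinar pancreas transcripts. Without the wild-type HFD sample, FGF1 null against wild-type on chow again called 3 members, with Pdgfrb at 1.85, Cd34 at 1.71 and Dlk1 at -1.14.

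The members' median differences were 0.05 for HFD against chow in FGF1 null eWAT and 0.07 in wild-type eWAT, beside -0.02 and 0.12 over all probes. For FGF1 null against wild-type they were 0.22 on chow and 0.30 on HFD, beside 0.09 and 0.02 over all probes. Members with opposite directions stand behind these small medians.

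**Figure D2:**
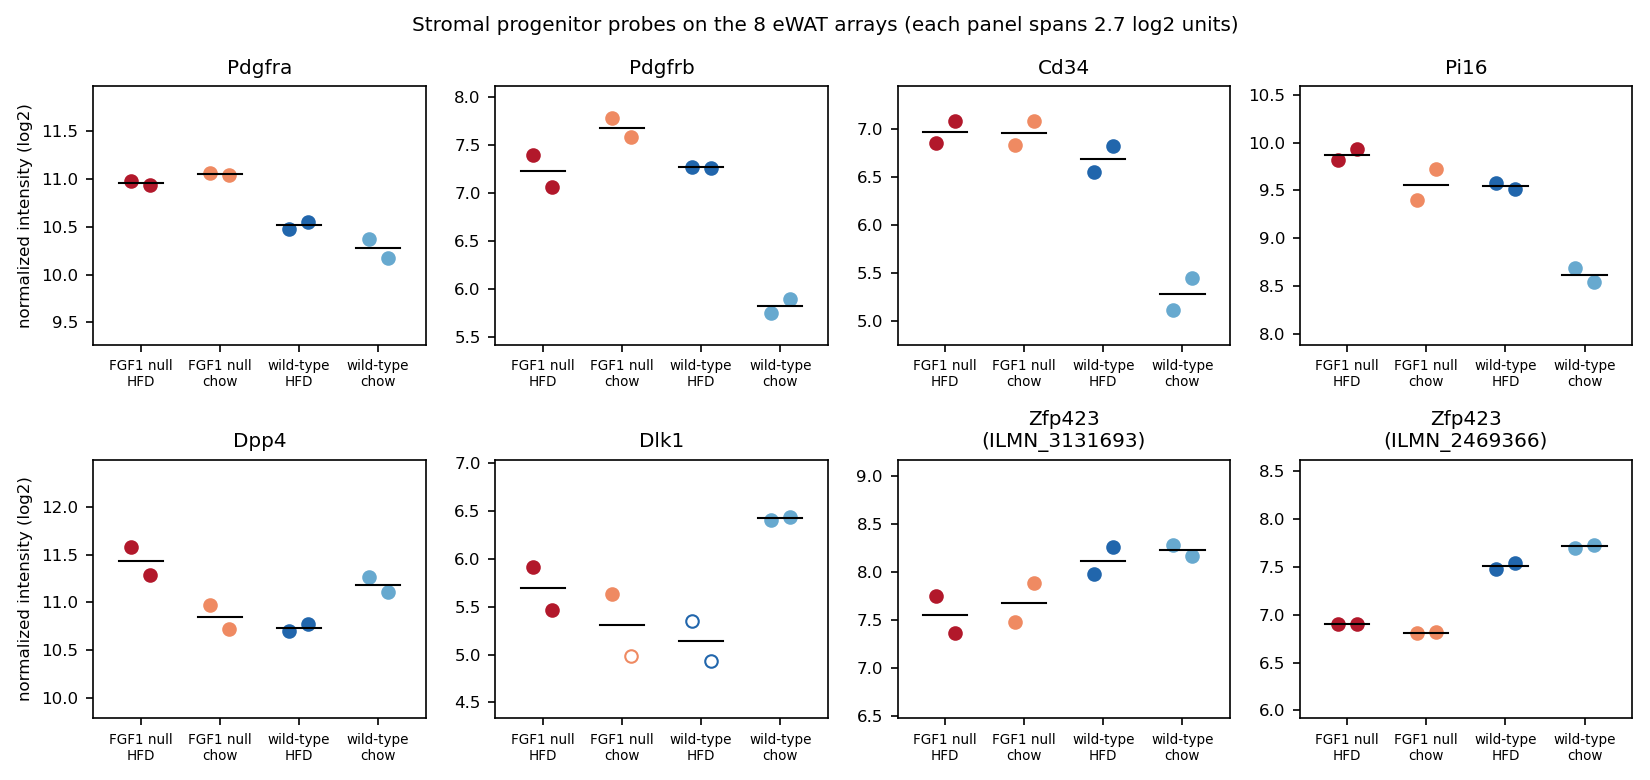
Log2 intensity of each member probe on the 8 eWAT arrays, by group, with 2 points for the 2 arrays of an RNA sample, a line for their mean, and open points where the probe was not detected. Pdgfrb, Cd34 and Pi16 are lowest in the wild-type chow sample, Dlk1 is highest there, and both Zfp423 probes are lower in the FGF1 null samples.

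Among the PDGF receptors, Pdgfra (ILMN_1235932) read 10.98 and 10.94 in FGF1 null HFD, 11.06 and 11.04 in FGF1 null chow, 10.48 and 10.55 in wild-type HFD, and 10.37 and 10.17 in wild-type chow eWAT. All 4 FGF1 null arrays lay above all 4 wild-type arrays, and within a genotype the diets lay close together. FGF1 null exceeded wild-type by 0.44 ± 0.12 on HFD (adjusted p = 0.0288) and by 0.78 ± 0.12 on chow (adjusted p = 0.00100), both short of 2-fold, although the chow difference was 1.09 with median scaling. HFD differed from chow by -0.09 ± 0.12 in FGF1 null and 0.24 ± 0.12 in wild-type samples, with adjusted p-values of 0.602 and 0.124. The order was FGF1 null chow, FGF1 null HFD, wild-type HFD and wild-type chow, and the neighbours of like genotype did not pass the test.

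Pdgfrb (ILMN_2903972) read 7.39 and 7.06 in FGF1 null HFD, 7.79 and 7.58 in FGF1 null chow, 7.27 and 7.26 in wild-type HFD, and 5.75 and 5.89 in wild-type chow eWAT. The wild-type chow arrays were far below the rest, and the other 3 samples lay closer together, with means of 7.23 in FGF1 null HFD, 7.68 in FGF1 null chow and 7.27 in wild-type HFD. HFD exceeded chow by 1.45 ± 0.15 in wild-type eWAT (2.73-fold, adjusted p = 7.67e-05), and the difference in FGF1 null eWAT was -0.46 ± 0.15 (adjusted p = 0.0560). FGF1 null exceeded wild-type by 1.86 ± 0.15 on chow (adjusted p = 2.48e-05), and the difference on HFD was -0.04 ± 0.15 (adjusted p = 0.869). Without background correction the called differences were 0.71 and 0.98, each short of 2-fold with the p still under the threshold.

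Of the surface markers, Cd34 (ILMN_2714360) had the same lowest sample. It read 6.85 and 7.08 in FGF1 null HFD, 6.83 and 7.09 in FGF1 null chow, 6.55 and 6.82 in wild-type HFD, and 5.11 and 5.45 in wild-type chow eWAT. The wild-type chow level lay near background, with a detection p of 0.0388 and 0.00251 on its arrays. HFD exceeded chow by 1.41 ± 0.18 in wild-type eWAT (adjusted p = 0.000226), against 0.01 ± 0.18 in FGF1 null eWAT (adjusted p = 0.980). FGF1 null exceeded wild-type by 1.68 ± 0.18 on chow (adjusted p = 0.000106), against 0.28 ± 0.18 on HFD (adjusted p = 0.278). Both called differences fell short of 2-fold without background correction, at 0.58 and 0.72. The summed endothelial markers, which include cells that carry Cd34, were 14985 to 15817 in FGF1 null HFD, 9124 to 9582 in FGF1 null chow, 11345 to 11605 in wild-type HFD and 6159 to 6191 in wild-type chow eWAT. They too were lowest in the wild-type chow sample, and their part in the Cd34 differences was not tested.

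Pi16 (ILMN_2669062) read 9.82 and 9.93 in FGF1 null HFD, 9.40 and 9.72 in FGF1 null chow, 9.58 and 9.52 in wild-type HFD, and 8.69 and 8.55 in wild-type chow eWAT. The wild-type chow arrays were again the lowest. The 2 differences against that sample stayed just under 2-fold, at 0.93 ± 0.15 for HFD in wild-type (adjusted p = 0.000750) and 0.94 ± 0.15 for FGF1 null on chow (adjusted p = 0.000863). They passed 2-fold without wild-type chow replicate 1, at 1.01 and 1.02, the second also without FGF1 null chow replicate 1, at 1.11, and with median scaling in place of quantile normalization, at 1.08 and 1.12. In FGF1 null eWAT the diets differed by 0.31 ± 0.15 (adjusted p = 0.140).

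Dpp4 (ILMN_2615096), the other marker of interstitial progenitors, was ordered differently. It read 11.58 and 11.28 in FGF1 null HFD, 10.97 and 10.72 in FGF1 null chow, 10.70 and 10.77 in wild-type HFD, and 11.26 and 11.11 in wild-type chow eWAT. FGF1 null HFD was the highest sample and wild-type HFD the lowest. None of its 2-group differences reached 2-fold. HFD differed from chow by 0.59 ± 0.15 in FGF1 null (adjusted p = 0.0236) and by -0.45 ± 0.15 in wild-type eWAT (adjusted p = 0.0344). FGF1 null differed from wild-type by 0.70 ± 0.15 on HFD (adjusted p = 0.0114) and by -0.34 ± 0.15 on chow (adjusted p = 0.0970). In this order each neighbouring pair differed by 0.34 or less.

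Among the regulators, Dlk1 (ILMN_1244618) encodes a membrane protein with EGF-like repeats that is lost as preadipocytes differentiate. It read 5.92 and 5.47 in FGF1 null HFD, 5.63 and 4.99 in FGF1 null chow, 5.35 and 4.93 in wild-type HFD, and 6.41 and 6.44 in wild-type chow eWAT. The probe was detected on 2 FGF1 null HFD arrays, 1 FGF1 null chow array, 0 wild-type HFD arrays and 2 wild-type chow arrays. Its highest level was in the wild-type chow sample, with no overlap with the others. It was at least 2.06-fold lower on HFD than on chow in wild-type eWAT (means 5.14 and 6.42, adjusted p = 0.00256). The difference of FGF1 null from wild-type on chow was -1.11 ± 0.25 (adjusted p = 0.00622), a call that was lost without FGF1 null chow replicate 2, at -0.78. Without background correction these differences were -0.50 and -0.44. On HFD the difference of FGF1 null from wild-type was not called (adjusted p = 0.138). Its bound of 1.24-fold higher in FGF1 null leaves out the spread between arrays.

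Zfp423 was measured by a pair of probes that ran the same way. Probe ILMN_2469366 read 6.91 and 6.90 in FGF1 null HFD, 6.80 and 6.82 in FGF1 null chow, 7.48 and 7.54 in wild-type HFD, and 7.69 and 7.73 in wild-type chow eWAT. Probe ILMN_3131693 read 7.74 and 7.36 in FGF1 null HFD, 7.48 and 7.88 in FGF1 null chow, 7.98 and 8.26 in wild-type HFD, and 8.28 and 8.17 in wild-type chow eWAT. On both probes all FGF1 null arrays lay below all wild-type arrays. The differences of FGF1 null from wild-type were -0.61 ± 0.11 on HFD (adjusted p = 0.00496) and -0.90 ± 0.11 on chow (adjusted p = 0.000257) for ILMN_2469366. For ILMN_3131693 they were -0.57 ± 0.19 on HFD (adjusted p = 0.0610) and -0.55 ± 0.19 on chow (adjusted p = 0.0430). None reached 2-fold, and the diet differences of both probes lay between -0.20 and 0.09.

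The arrays of Pdgfra and Zfp423 were thus separated by genotype, in opposite directions, over 2 RNA samples of each genotype. The share of all probes separated in this way is not given here. The arrays of a sample are technical replicates, so the separation is a description. In the fit to RNA samples, with diet and genotype as additive terms, FGF1 null differed from wild-type by 0.61 ± 0.41 for Pdgfra and by -0.75 ± 0.41 and -0.56 ± 0.40 for the Zfp423 probes ILMN_2469366 and ILMN_3131693, each with an adjusted p of 1.00. That limma fit called 0 of 15839 probes for either factor, with 281 probes for diet and 95 for genotype at an unadjusted p under 0.05, and 0 members among them. On simulated data the same fit recovered 0% of 4-fold changes, so its count of 0 says nothing about stability.

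**Figure D3:**
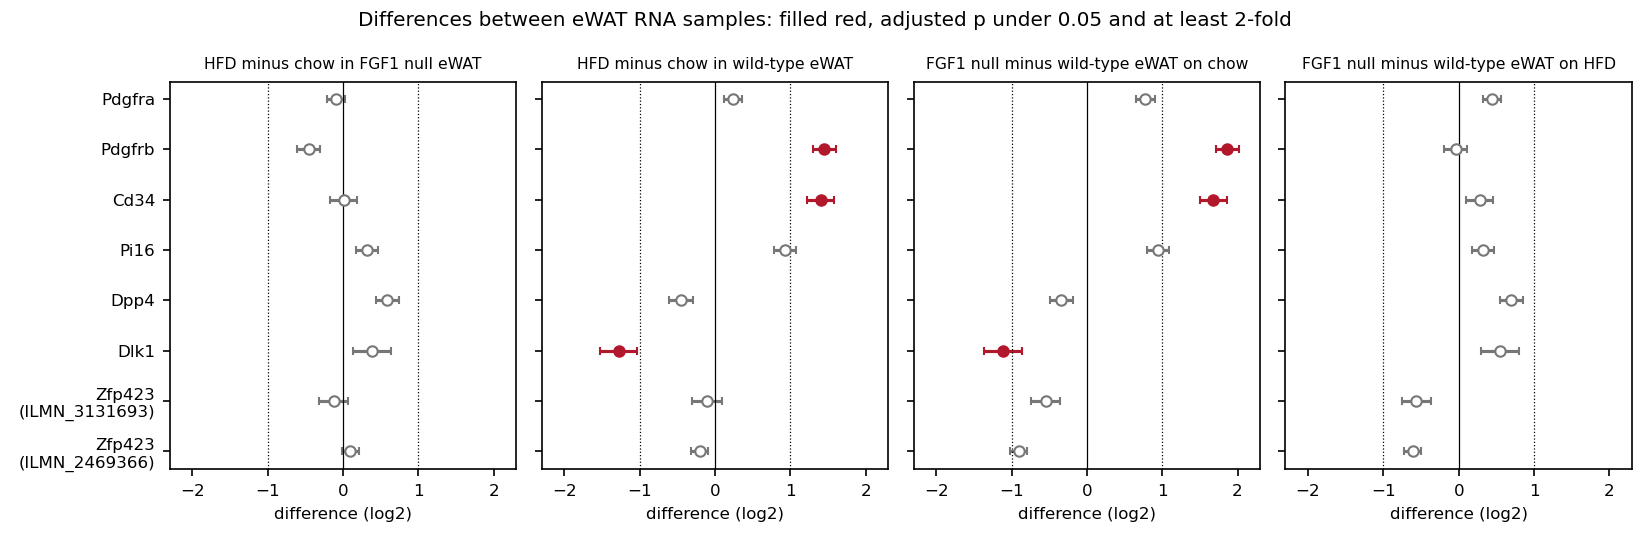
Differences of log2 intensity with their SE for each member probe in the 4 comparisons of eWAT samples; dotted lines mark 2-fold, and filled red points were called. Pdgfrb, Cd34 and Dlk1 are called in the middle panels, both of which use the wild-type chow sample, and no member is called in the outer panels.

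The difference between the diet responses, FGF1 null minus wild-type, was tested as an interaction and called 4 of 8 member probes, 2 higher and 2 lower, where 37.8% of all probes were called (18.2% higher and 19.6% lower). It was -1.90 ± 0.22 for Pdgfrb (adjusted p = 0.000152) and -1.40 ± 0.25 for Cd34 (adjusted p = 0.00200). It was 1.66 ± 0.35 for Dlk1 (adjusted p = 0.00468) and 1.04 ± 0.22 for Dpp4 (adjusted p = 0.00441). Dpp4 was thereby the member whose diet difference was positive in FGF1 null and negative in wild-type eWAT with both adjusted p-values under 0.05. Without background correction the interactions of Cd34 and Dlk1 were -0.57 and 0.63, and with the authors' normalized values they were -0.57 and 0.64, all short of 2-fold. Pdgfrb fell short with the authors' values, at -0.96. The Dpp4 interaction dropped under 2-fold without any of 4 single arrays, down to 0.89, and fell to 0.48 with median scaling (adjusted p = 0.0995). Pi16 had an interaction of -0.62 ± 0.21 (adjusted p = 0.0344), short of 2-fold. Pdgfra and both Zfp423 probes had interactions between -0.34 and 0.29, with adjusted p-values of 0.138 or more.

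Genes that mark the states of adipose progenitors were counted in the same fits, each list by its brightest kept probe per gene. Their counts stand beside shares over all probes of 9.64% called for HFD in FGF1 null eWAT, 16.2% higher and 15.6% lower for HFD in wild-type eWAT, 13.2% higher and 12.5% lower for FGF1 null on chow, and 10.8% called for FGF1 null on HFD. Of 13 measured genes shared by fibroblasts and mesenchymal stem cells, 2 were higher and 1 lower on HFD than on chow in FGF1 null eWAT, and 6 were higher in wild-type eWAT. On chow, 8 of 13 were higher in FGF1 null than in wild-type eWAT, and on HFD 1 was. Mfap5, a microfibril protein of interstitial fibroblasts, averaged 11.25 in FGF1 null and 8.50 in wild-type chow eWAT, a difference of 2.75 ± 0.13 (adjusted p = 9.46e-07). Lumican (Lum), a collagen-binding proteoglycan, averaged 12.26 in FGF1 null and 9.96 in wild-type chow eWAT. Serpinf1, which encodes pigment epithelium-derived factor, was higher on HFD by 1.71 ± 0.13 in wild-type eWAT (14.12 and 12.42). Cxcl12, a chemokine of stromal cells, was higher on HFD by 1.69 ± 0.13 in FGF1 null eWAT (12.36 and 10.66). The list's median differences were 0.98 for HFD in wild-type and 1.07 for FGF1 null on chow, beside 0.12 and 0.09 over all probes.

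Of 8 measured markers of Dpp4-positive interstitial progenitors, HFD called 2 in FGF1 null eWAT, both higher, and 5 in wild-type eWAT, of which 3 were higher. Over all probes these comparisons called 9.64% and 31.8%. On chow 2 were higher and 2 lower in FGF1 null than in wild-type eWAT, and on HFD 0 were called. Cd55, a complement regulator, averaged 8.89 in FGF1 null and 7.06 in wild-type chow eWAT, and Cd248 (endosialin) averaged 10.62 and 8.84 in those samples. In contrast Efhd1 averaged 7.58 in FGF1 null and 10.41 in wild-type chow eWAT (-2.84 ± 0.15, adjusted p = 1.87e-06). Bmp7, a bone morphogenetic protein, was higher on HFD in FGF1 null eWAT by 1.12 ± 0.33 (adjusted p = 0.0341) and was lower with HFD in the wild-type samples (-1.38 ± 0.33, adjusted p = 0.00676).

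Of 12 measured markers of committed preadipocytes, 0 were higher and 1 lower on HFD in FGF1 null eWAT, and 3 were higher in wild-type eWAT, where 9.64% of all probes were called in FGF1 null and 16.2% were higher in wild-type eWAT. On chow 8 of 12 were higher in FGF1 null than in wild-type eWAT, and on HFD 1 was lower. The list includes Lpl, Cd36, Fabp4 and Apoe, which are not particular to preadipocytes. Summed adipocyte markers were also higher in FGF1 null chow (109224 to 120056) than in wild-type chow eWAT (58413 to 58504). Macrophage markers were higher there too (45297 to 49418 and 4669 to 4694), and the part of these cells in the count was not tested. Col15a1, a basement membrane collagen, averaged 9.40 in FGF1 null HFD, 11.59 in FGF1 null chow, 11.86 in wild-type HFD and 8.30 in wild-type chow eWAT. Its diet difference was -2.19 ± 0.18 in FGF1 null (adjusted p = 9.52e-05) and 3.55 ± 0.18 in wild-type eWAT (adjusted p = 9.39e-07). Col4a2, a type IV collagen chain, averaged 13.16 in FGF1 null and 11.17 in wild-type chow eWAT. The list's median was 1.10 for FGF1 null on chow. Of 7 measured markers of the progenitor subset that is positive for tissue factor, HFD called 1 higher in FGF1 null eWAT and 2 higher with 2 lower in wild-type eWAT, and FGF1 null called 1 higher on each diet. The one on chow was the homeobox factor Meox2 at 9.51 in FGF1 null and 7.47 in wild-type chow eWAT. F3 itself, the tissue factor gene, was not detected on any eWAT array.

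Ligands of the receptors were measured alongside them. Of 10 measured genes of the PDGF ligand and signalling list, 0 were called on diet in FGF1 null eWAT and 2 were higher on HFD in wild-type eWAT. In FGF1 null against wild-type, 1 was higher on chow and 0 were called on HFD. Pdgfb, the ligand of Pdgfrb that endothelium secretes, read 10.06 in FGF1 null HFD, 10.68 in FGF1 null chow, 9.95 in wild-type HFD and 8.73 in wild-type chow eWAT. FGF1 null exceeded wild-type chow by 1.94 ± 0.11 (adjusted p = 3.78e-06), and HFD exceeded chow by 1.21 ± 0.11 in wild-type eWAT (adjusted p = 3.94e-05). Pdgfb and Pdgfrb were both lowest in the wild-type chow sample. Pdgfa, a ligand of Pdgfra, averaged 9.99 in FGF1 null HFD, 10.37 in FGF1 null chow, 10.09 in wild-type HFD and 10.68 in wild-type chow eWAT, so it was highest in the sample where Pdgfra was lowest, and no comparison called it. Pdgfc averaged 8.19 on HFD and 7.14 on chow in wild-type eWAT (1.05 ± 0.14, adjusted p = 0.000335), and Pdgfd was not detected on any eWAT array.

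Of 14 measured regulators of adipogenic commitment, HFD called 0 in FGF1 null eWAT and 8 in wild-type eWAT, 7 of them higher, where 9.64% and 31.8% of all probes were called. The 0 rests on the probe taken for each gene: in FGF1 null eWAT, Pparg was called higher on HFD by probe ILMN_1221594 (1.59, adjusted p = 0.000166) and not by the probe counted, ILMN_1221060 (0.83). Likewise Ebf2, a partner factor of Zfp423, was called by ILMN_2883606 (1.04, adjusted p = 0.000577) and not by ILMN_1251248 (0.92). On chow 6 were higher and 1 lower in FGF1 null than in wild-type eWAT, and on HFD 0 were called. The difference of the diet responses was called for 6 of the 14, 1 higher and 5 lower, where 37.8% of all probes were called (18.2% higher and 19.6% lower). Cebpa, an adipogenic transcription factor, averaged 8.99 on HFD and 6.16 on chow in wild-type eWAT (2.83 ± 0.27, adjusted p = 4.59e-05). Pparg, the nuclear receptor that directs fat cell formation, averaged 12.79 on HFD and 10.74 on chow in wild-type eWAT. Klf5, a Krüppel-like factor that is also abundant in epithelia, was lower on HFD in wild-type eWAT (7.05 and 8.61) and lower in FGF1 null than in wild-type chow eWAT (6.78 and 8.61). Ccn5, a matricellular protein of the same list, averaged 9.54 in FGF1 null and 7.92 in wild-type chow eWAT. The summed adipocyte markers were 127842 to 135090 in FGF1 null HFD, 109224 to 120056 in FGF1 null chow, 149981 to 155877 in wild-type HFD and 58413 to 58504 in wild-type chow eWAT, and their part in these counts was not tested.

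The remaining lists hold relatives of single members. Of 11 measured genes of DLK1 and Notch signalling, HFD called 1 lower in FGF1 null eWAT and 3 in wild-type eWAT, of which 1 was higher. On chow 2 were higher in FGF1 null than in wild-type eWAT, Adam17, the protease that sheds Dlk1 from the membrane (10.06 and 8.25) and Notch3, a receptor of mural cells (9.44 and 7.83). Of 9 measured DPP family genes and partners of Dpp4, 4 were higher on HFD in wild-type eWAT and 3 were higher in FGF1 null than in wild-type chow eWAT. Fap, the fibroblast activation protein closest in sequence to Dpp4, was not detected in wild-type chow eWAT and stood at least 2.54-fold higher in the FGF1 null chow sample (means 6.40 and 4.79, adjusted p = 0.000130). Of 7 measured Ly6 family genes, relatives of the unmeasured Ly6a, 4 were lower on HFD in wild-type eWAT and 3 lower in FGF1 null than in wild-type chow eWAT. Ly6g6c was at least 11.8-fold lower on HFD in wild-type eWAT. Ly6f averaged 12.32 in FGF1 null HFD, 12.42 in FGF1 null chow, 5.34 in wild-type HFD and 14.06 in wild-type chow eWAT, the same order as the epididymal marker sums.

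**Figure D4:**
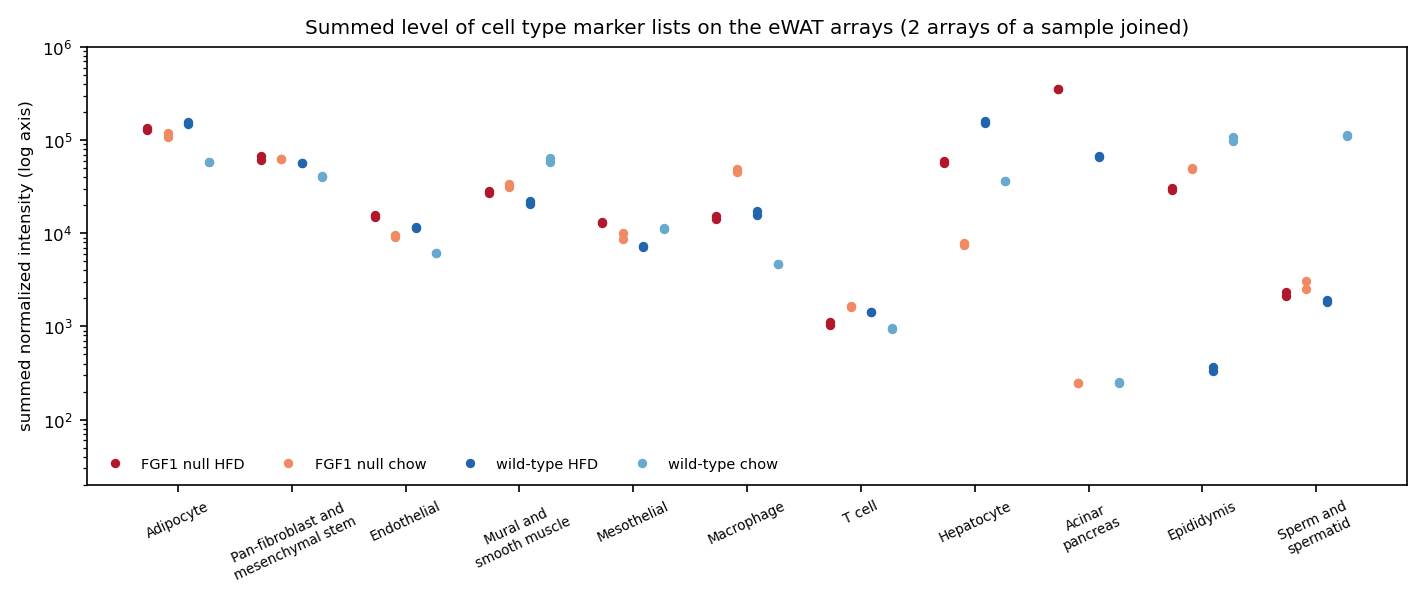
Summed linear intensity (log axis) of the marker genes of 11 cell types and tissues in the 4 eWAT samples, with a point for each array. Sperm markers are high in the wild-type chow sample, epididymal markers are low in wild-type HFD, acinar pancreas markers are high in both HFD samples, hepatocyte markers are highest in wild-type HFD (153909 to 160088), and macrophage markers are highest in FGF1 null chow.

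Markers of the other cells of the depot were counted in the same way. Macrophage markers summed to 14099 to 15179 in FGF1 null HFD, 45297 to 49418 in FGF1 null chow, 15587 to 17143 in wild-type HFD and 4669 to 4694 in wild-type chow eWAT. All 6 measured were higher on HFD in wild-type eWAT and higher in FGF1 null than in wild-type chow eWAT, the comparisons that also called Pdgfrb and Cd34. Mural and smooth muscle markers split: the pericyte genes Cspg4 and Mcam were higher in both of these comparisons, while the contractile genes Myh11 and Cnn1 were lower in both. Rgs5, also a pericyte gene, was higher on HFD in wild-type eWAT (7.88 and 6.35) but was not called for FGF1 null on chow. It was higher on HFD in FGF1 null eWAT as well (8.36 and 7.05, adjusted p = 0.00303), where Pdgfrb was not called. Cspg4 averaged 7.10 in FGF1 null and 5.78 in wild-type chow eWAT, and Myh11 averaged 11.46 and 13.06 in those samples. Pdgfrb, a receptor that pericytes carry, was also higher in FGF1 null than in wild-type chow eWAT. There Cspg4 and Mcam were higher, Rgs5 was not called and Myh11 was lower. The part of any of these cells in the members' levels was not tested.

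In liver, 3 member probes passed the detection filter: Pdgfra, Pdgfrb and Dpp4. None was called in HFD against chow in FGF1 null (7.92% of 11580 probes called) or wild-type liver (5.35%), nor in FGF1 null against wild-type on chow (1.85%) or on HFD (4.55%). Those limma fits gave an unadjusted p under 0.05 for 1 of the 3 in FGF1 null liver on diet, 0 in wild-type liver, and 1 in each genotype comparison. Of all 11580 probes, 4349 had such a p for diet in FGF1 null liver and 3901 in wild-type liver. For the genotypes these counts were 2554 on chow and 3212 on HFD. Dpp4 was steady, at 11.53 and 11.46 in FGF1 null HFD, 11.54 and 11.49 in FGF1 null chow, 11.52 and 11.67 in wild-type HFD, and 11.59 and 11.39 in wild-type chow liver, and its 4 differences lay between -0.10 and 0.10. Pdgfra differed by -0.15 to 0.31 in these comparisons.

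Pdgfrb in liver, where stellate cells carry it, was detected on the 2 FGF1 null HFD arrays and on no other. It read 5.35 and 5.64 in FGF1 null HFD, 4.42 and 4.64 in FGF1 null chow, 4.98 and 4.71 in wild-type HFD, and 4.96 and 4.92 in wild-type chow liver. Both FGF1 null HFD arrays lay above the 6 others. HFD was at least 1.20-fold above chow in FGF1 null liver (fitted difference 0.97 ± 0.16, adjusted p = 0.00506). On HFD, FGF1 null was at least 1.27-fold above wild-type liver (0.66 ± 0.16, adjusted p = 0.0378). The probe passed the detection filter only through the FGF1 null HFD group, where it was high, so these p-values are no support for the differences. The remaining members, Cd34, Dlk1 and both Zfp423 probes, were detected on no liver array, and Pi16 on 1.

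The genes whose eWAT profiles came closest to each member were found by the Euclidean distance between centred log2 profiles over the 4 eWAT RNA samples, among 10994 other genes. Over so few samples many genes come close, and the distances are a description. Nearest to Pdgfra were Cpq, Tsr1 and Cdk9, at distances of 0.04, 0.07 and 0.10. Nearest to Pdgfrb were Il10rb (0.08), an interleukin-10 receptor chain, Pilrb1 (0.09) and Pid1 (0.11). Nearest to Cd34 were Tmem100 (0.06), Acadl (0.10) and Klf2 (0.11). Dpp4 was nearest to Pigh, Ubxn2a and Zfp689, and Pi16 to Mapk12, Dennd2a and Ugt1a6a, at distances of up to 0.08. Dlk1 was nearest to Trim2, Alad and Zc3h14, and the Zfp423 probe ILMN_3131693 to Cox10, Il11 and Kdm8. The members' own ranges over the 4 samples were 0.67 for that Zfp423 probe, 0.70 for Dpp4, 0.78 for Pdgfra, 1.26 for Pi16, 1.28 for Dlk1, 1.69 for Cd34 and 1.86 for Pdgfrb.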

How the data were processed

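The authors hybridized total RNA to Illumina MouseRef-8 arrays, and per the submitters' processing notes GenomeStudio was used. The deposited non-normalized table holds a linear intensity and a detection p-value per probe and array. A second deposited table holds the authors' normalized intensity, whose method is not given in the sources used here, with column medians of 134.6 to 134.8. In R 4.3.3 with limma 3.58.1, background was estimated by neqc from detection p-values, the offset was 16, and arrays of a tissue were quantile normalized and taken to log2. Background correction spreads dim probes. A probe was kept if some group had it detected (p under 0.05) on both its arrays, 15839 in eWAT and 11580 in liver. Of the array's probes 23978 carry 1 symbol and 1719 none. limma's lmFit and eBayes fitted a mean per group over 8 arrays, with Benjamini-Hochberg adjustment over all kept probes. Separate fits averaged the 2 arrays of an RNA sample. On simulated data the array fit recovered 99.5% to 100% of 4-fold changes, with between-sample variation left out. The members and lists were chosen with earlier results of these data known. Named genes are all member probes, up to 2 called members of each list in each direction per eWAT comparison, the 3 nearest genes per member, and Fgf1. Genes named for what was not detected (F3, Pdgfd) were chosen after their values were seen. The number of arrays limits precision. Alternatives were other background, scaling, filter and fold settings, the authors' values, a replicate block and leaving out arrays or samples.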

Additional observations from a re-analysis of the deposited data

Results flagged for a closer look

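In liver, the wild-type HFD sample stood apart from the other 3 for Pi16, with its gap to the nearest sample making up 0.959 of the whole range over the 4 RNA samples. That sample averaged 5.50 after joint normalization and the lowest, FGF1 null HFD, 4.98, and it held the only liver array on which Pi16 was detected. Normalized within liver, its 2 arrays read 4.81 (not detected) and 5.39 (detected). Chance alone marks about 1 in 20 such groups of samples, and every member probe detected on some array of a tissue was screened.

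In eWAT the diet difference of 4 members differed between the genotypes by the test of the interaction (FGF1 null minus wild-type): -1.90 for Pdgfrb, -1.40 for Cd34, 1.04 for Dpp4 and 1.66 for Dlk1. For Pdgfrb, Cd34 and Dlk1 the wild-type chow sample lay outside the range of the other 3 samples. It did so too for Pdgfra, Pi16 and both Zfp423 probes, whose interactions were not called. The share over all probes is not given here. The wild-type chow sample also held sperm transcripts at 109834 to 112182 summed intensity, and the wild-type HFD sample hepatocyte transcripts at 153909 to 160088. The FGF1 null HFD sample held acinar pancreas transcripts at 350844 to 357307. The part of these transcripts in the members' values was not tested.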

How the results depend on the processing

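No member difference turned round in sign with a call under any alternative. Without background correction the members called fell to 0 for HFD in wild-type eWAT, 0 for FGF1 null on chow and 1 for the interaction, and with the authors' normalized values to 0, 0 and 1. The interaction called was that of Pdgfrb (-1.01) in the first setting and of Dpp4 (1.02) in the second, and the cause was not tested. Median scaling called 5 members for FGF1 null on chow and 1 for HFD in FGF1 null liver, Pdgfrb, which was undetected on chow there and so has only its bound. It moved the median of all eWAT probes to 0.29 for HFD in wild-type, -0.10 for HFD in FGF1 null, 0.26 for FGF1 null on chow and -0.32 for the interaction. The share of calls in the higher direction then became 31.3% in place of 42.8% for HFD in FGF1 null eWAT, 37.0% in place of 48.2% for the interaction, 83.1% in place of 55.8% for HFD in wild-type liver, 77.6% in place of 63.8% for HFD in FGF1 null liver, and 76.6% in place of 62.6% for FGF1 null on chow in liver. A minimum of 1.5-fold called 1 member for HFD in FGF1 null eWAT, 6 for FGF1 null on chow, 2 for FGF1 null on HFD, 1 for HFD in FGF1 null liver and 1 for FGF1 null on HFD in liver. Leaving out each array in turn gave 3 to 4 members for HFD in wild-type eWAT, 2 to 4 for FGF1 null on chow, 3 to 4 for the interaction and 0 to 1 for HFD in FGF1 null liver, and 0 in the other comparisons of groups.

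The counts over all probes moved more. HFD in wild-type eWAT called 5041 probes, against 2953 without background correction, 2828 with the authors' values and 7937 at 1.5-fold. FGF1 null on chow called 4077, against 2316, 2209 and 6968, and the interaction called 5994, against 3758 and 3629. HFD in FGF1 null eWAT called 1527, against 746, 687 and 3629, and FGF1 null on HFD called 1713, against 882, 828 and 3658. In liver, HFD called 917 in FGF1 null (400, 450 and 2191) and 620 in wild-type (295, 297 and 1685). FGF1 null in liver called 214 on chow (85, 84 and 537) and 527 on HFD (231, 246 and 1287). FGF1 null on chow in liver called 449 without wild-type chow replicate 2, 85 without FGF1 null chow replicate 1 and 105 without FGF1 null chow replicate 2. The tissue comparison called 4497, against 2802 without background correction.

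Same-numbered arrays did not deviate together: the correlations of their deviations were -0.04 to 0.05 in eWAT and -0.07 to 0.02 in liver, with 0 of 6 pairs over 0.1 in each. With the replicate number as a block the member counts were again 3 for HFD in wild-type eWAT, 0 in FGF1 null eWAT, 3 for FGF1 null on chow, 0 on HFD and 4 for the interaction. Without the wild-type chow eWAT sample, an alternative chosen after seeing the data, both comparisons that do not use it again called 0 members. Without the wild-type HFD eWAT sample, likewise chosen after seeing the data, HFD in FGF1 null eWAT called 0 and FGF1 null on chow 3. The FGF1 null HFD sample, with the highest acinar pancreas markers, was not left out of the eWAT fits in this way. Precision is limited by 2 arrays and 1 RNA sample per group, and dim members (Dlk1 in eWAT, Cd34 in wild-type chow eWAT, Pdgfrb in liver) lie near background.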
